A study of Mus musculus with 22 samples.

Results

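A set of 10 genes of the extracellular matrix and of hepatic stellate cells were followed over all 22 arrays of the series. They were taken from a list by name and make up 10 of the 15780 named genes on the array. Col1a1, Col1a2 and Col3a1 encode chains of fibrillar collagens, and Col4a1 and Col4a2 the chains of the most widespread basement membrane collagen. Dcn (decorin) and Lum (lumican) encode small leucine-rich proteoglycans that bind collagen fibrils. Acta2 (smooth muscle alpha-actin) and Des (desmin) are cytoskeletal genes used as markers of contractile cells, and Timp1 encodes a secreted inhibitor of matrix metalloproteinases. Each gene was measured by 1 probe set.

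In the liver, stellate cells of the perisinusoidal space store vitamin A and, once activated, turn into myofibroblasts that make fibrillar collagen, smooth muscle actin and TIMP1. Fibroblasts of the portal tracts and the mesothelium of the capsule also make matrix, and endothelial cells contribute basement membrane collagen. In the testis the tubules are wrapped by contractile peritubular myoid cells, which share smooth muscle actin with vascular smooth muscle and rest on a basement membrane, whereas germ cells are not known as matrix producers.

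The study compared Ts43H males, which are trisomic for a centromeric piece of chromosome 17, with euploid siblings of genotype t121/D17. All mice were males of 2 months. RNA came from whole liver and from germ cells that had been sorted by fluorescence out of suspensions of testis tubules, namely spermatocytes of pre-mid and of mid-late pachytene, and spermatids. Both genotypes were represented by 3 arrays in every cell type except mid-late-pachytene spermatocytes, which had 2. The labels leave unsaid if each array is a separate animal, so the p-values below measure the spread between these samples, which may be technical. Values are log2 intensities, in which a difference of 1 is a 2-fold change. Values below 3 are called the background range, and genes with a mean of at least 4 over the arrays of a cell type were tested there. In bulk liver, a change in the number of cells of a type and a change in RNA per cell cannot be told apart.

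The promoters of the fibrillar collagen genes measured best in liver are shown because these genes lie on different chromosomes and had higher values on the same arrays. Each line gives the 250 bases before the RefSeq transcription start in GRCm38.p6, on the plus strand, at chr6:4505368-4505617 for Col1a2 and chr1:45311288-45311537 for Col3a1. Capitals mark sequence matches to the CCAAT box (CCAAT, searched on both strands) and the GC box (GGGCGG, both strands) in Col1a2, and to TATAA (plus strand only) in Col3a1. Whether a match acts as a promoter element was not tested.
Col1a2: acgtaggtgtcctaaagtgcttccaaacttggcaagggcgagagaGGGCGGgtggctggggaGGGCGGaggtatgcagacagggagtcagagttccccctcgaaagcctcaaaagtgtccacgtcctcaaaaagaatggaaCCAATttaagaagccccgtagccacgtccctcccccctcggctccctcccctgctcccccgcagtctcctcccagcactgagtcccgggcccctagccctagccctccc
Col3a1: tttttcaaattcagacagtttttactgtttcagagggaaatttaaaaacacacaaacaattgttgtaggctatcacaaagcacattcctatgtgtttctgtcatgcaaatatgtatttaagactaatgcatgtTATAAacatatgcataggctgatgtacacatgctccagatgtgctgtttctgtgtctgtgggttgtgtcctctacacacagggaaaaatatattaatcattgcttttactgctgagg
Counted from its first base, the CCAAT box of Col1a2 lies 109 bases before the start and its GC boxes 205 and 188 bases before it, and the TATAA of Col3a1 lies 117 bases before the start. Col3a1 held neither of the other motifs in this window. Among 32851 mouse promoters of the same length, 33.8% held a CCAAT box, 32.7% a GC box and 16% TATAA, so none of these matches is rare. The window of Acta2, in which serum response factor sites might be looked for, held no match to the strict CArG box (CCWWWWWWGG, W being A or T). Of all promoters 1.47% held a match. Sites with a G or C in the core were not searched for, so this does not show that Acta2 lacks such sites. RefSeq promoters were matched for 7 of the 10 genes.

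Array medians lay between 4.10 and 4.69, and the correlation across genes between arrays of 1 group was 0.988 to 0.997 (genes are not replicates). The 8 hepatocyte markers measured had a mean level of 15.83 to 15.98 on euploid and 15.87 to 15.92 on trisomic liver arrays. Stellate cell markers measured in the liver included Lrat, the retinol-esterifying enzyme, with means of 9.14 (euploid) and 8.86 (trisomic), and Reln, with 11.74 and 12.02. Reln was not particular to liver, with 6.15 to 9.29 on the germ cell arrays. Of 16 stellate cell markers outside the 10 genes, 8 reached a mean of 4 in euploid liver and 5 were in the background range. Of the 10 genes themselves, Des and Timp1 were in or at the edge of the background range on every liver array and Col1a1 on most, so the results in liver rest on the remaining 7. Euploid liver 1 stood apart by 7.09 for Prm1, the protamine gene of spermatids, against 2.74 to 2.97 on the other liver arrays. Without that array 4 of the 10 genes, in place of 3, passed the limma test for liver: Col1a2 (1.61, adjusted p = 3.82e-05), Col4a1 (1.31, 0.00166), Col4a2 (1.17, 0.0235) and Lum (0.98, 0.0041).

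All 7 matrix and contractile genes measured in liver had higher means in trisomic than in euploid liver. Col1a2 was 3.16-fold, Col4a2 2.05-fold and Lum 1.72-fold higher, and these 3 of 7 passed the test (limma, two-sided, adjusted p under 0.05 over all genes tested). None of the 7 was called lower. Over the whole array 5.77% of the 8180 tested genes were called higher and 3.78% lower. The median change of the 7 genes was 0.90 on the log2 scale, against -0.01 for all tested genes, of which 3935 had a positive change. The trisomic arrays lay above the euploid ones without overlap in 6 of the 7 genes, and in 11.8% of all tested genes. These calls used a spread per gene shared by all 22 arrays. For Col1a2 and Lum it was smaller than the SD within groups in liver (0.199 against 0.371, and 0.243 against 0.375). Their SEs were thus smaller than the liver arrays alone would give. For Col4a2 it was larger (0.365 against 0.31). When limma was run on the 6 liver arrays alone, 0 of the 7 genes passed, 4 of them had an unadjusted p under 0.05, and 0.232% of all genes were called.

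**Figure D1:**
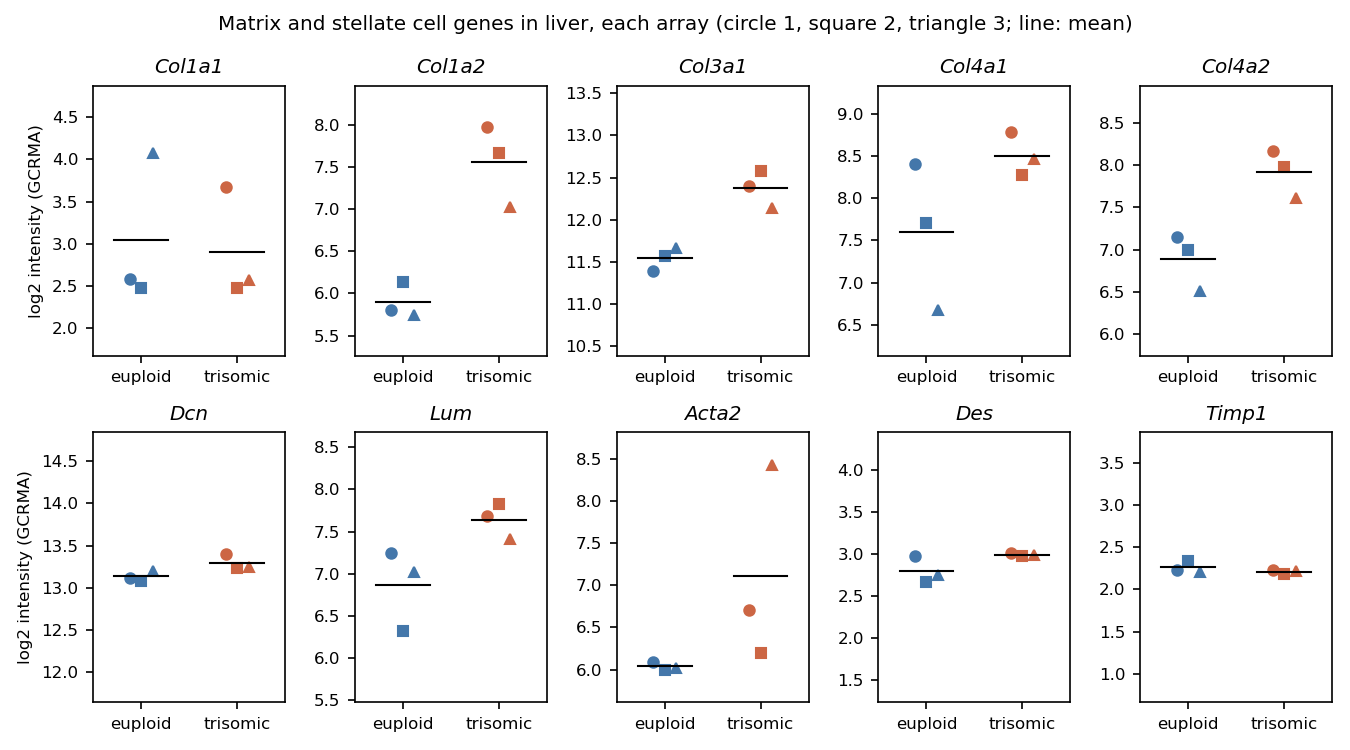
Log2 GCRMA intensity of the 10 genes on each liver array (circle, square and triangle for arrays 1, 2 and 3; blue euploid, orange trisomic; the line is the group mean). The trisomic arrays lie above the euploid ones for Col1a2, Col3a1, Col4a2, Dcn, Lum and Acta2, while Timp1 stays between 2.18 and 2.34 on all 6 arrays.

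Among the fibrillar collagens, Col1a2, the second chain of type I collagen, read 5.81, 6.14 and 5.75 on euploid liver arrays 1 to 3. On trisomic liver arrays 1 to 3 it read 7.97, 7.67 and 7.03. Every trisomic array was thus above every euploid one, from 6.14 to 7.03 at the closest. The means were 5.90 ± 0.21 (SD, n = 3) and 7.56 ± 0.48 (SD, n = 3), and Col1a2 rose by 1.66 (log2, SE 0.169, 95% interval 1.30 to 2.01, limma adjusted p = 7.66e-06). The SD within groups of Col1a2 was 0.371 in liver and 0.0191 in germ cells, where its values were in the background range. With the liver arrays alone the SE was 0.265 and the adjusted p 0.0698.

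Col3a1, the chain of type III collagen that is abundant in the reticular fibres of the liver, read 11.39, 11.57 and 11.67 on the euploid arrays and 12.40, 12.58 and 12.14 on the trisomic arrays. The groups did not overlap, and the means of 11.54 ± 0.15 and 12.38 ± 0.22 (SD, n = 3 each) differed by 0.83, or 1.78-fold. This difference was not called (limma adjusted p = 0.653, 95% interval -0.93 to 2.59). The SD within groups of Col3a1 was 0.189 in liver and 1.33 in germ cells, and the shared spread was largely that of the germ cell arrays. On the liver arrays alone the interval was 0.43 to 1.23 and the adjusted p 0.101.

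Col1a1, the main chain of type I collagen, gave no tested value in liver. It read 2.58, 2.47 and 4.07 on the euploid arrays and 3.67, 2.48 and 2.57 on the trisomic arrays. One array of each genotype was above the background range, and the groups overlapped. The probe sets of Col1a1 and Col1a2, whose products form 1 triple helix, thus did not give the same picture, and levels of different probe sets cannot be set against each other.

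The basement membrane chains are encoded head to head from a shared promoter region. Col4a2 read 7.15, 7.0 and 6.51 on euploid and 8.17, 7.98 and 7.61 on trisomic liver arrays, again without overlap. It rose by 1.04 from 6.88 ± 0.34 to 7.92 ± 0.28 (SD, n = 3 each; SE 0.281, 95% interval 0.44 to 1.63, limma adjusted p = 0.0258, and 0.121 on the liver arrays alone). The Col4a2 call was lost without euploid liver 3 (0.85, adjusted p = 0.125), trisomic liver 1 (0.91, 0.101) or trisomic liver 2 (1.01, 0.07).

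Col4a1 read 8.41, 7.70 and 6.68 on euploid and 8.78, 8.27 and 8.46 on trisomic liver arrays. Euploid liver 1 was higher than trisomic liver 2, which made Col4a1 the 1 tested gene of the 7 whose groups overlapped. Its means were 7.60 ± 0.87 and 8.50 ± 0.26 (SD, n = 3 each), and the change of 0.90 was not called (SE 0.283, limma adjusted p = 0.0534, and 0.363 on the liver arrays alone). Without euploid liver 1, the array with the high Prm1 value, the change of Col4a1 was 1.31 with an adjusted p of 0.00166.

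Of the proteoglycans, Lum read 7.25, 6.32 and 7.02 on euploid and 7.69, 7.83 and 7.41 on trisomic liver arrays. The gap between the groups, from 7.25 to 7.41, was narrower than the range within the euploid group. Lum rose by 0.78 from 6.86 ± 0.48 to 7.64 ± 0.22 (SD, n = 3 each; SE 0.198, 95% interval 0.36 to 1.20, limma adjusted p = 0.0172, and 0.237 on the liver arrays alone). The Lum call was lost without euploid liver 2 (0.51, adjusted p = 0.069), trisomic liver 1 (0.76, 0.0533) or trisomic liver 2 (0.69, 0.07), and when each array was centred on its median (0.66, 0.0516).

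Dcn, which decorates collagen fibrils and binds TGF-beta, had a high and even signal in liver, with 13.12, 13.08 and 13.20 on euploid and 13.40, 13.23 and 13.25 on trisomic arrays. The groups did not overlap but lay close together, at 13.13 ± 0.06 and 13.29 ± 0.09 (SD, n = 3 each). The difference of 0.16 was not called with all arrays (limma adjusted p = 0.903, 95% interval -0.74 to 1.06) or with the liver arrays alone (0.565, -0.14 to 0.46).

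Among the contractile markers, Acta2 was even on the euploid liver arrays, with 6.09, 6.0 and 6.02, and uneven on the trisomic arrays, with 6.70, 6.19 and 8.42. The difference of 1.07 between 6.04 ± 0.05 and 7.11 ± 1.17 (SD, n = 3 each) came mainly from trisomic liver 3 and was not called (SE 0.57, limma adjusted p = 0.298). Without trisomic liver 3 it was 0.41. The same array stood apart for the cell division genes Cdk1, with 8.08 against 4.45 and 5.33 on trisomic arrays 1 and 2, and Cdc20, with 8.85 against 6.16 and 5.69, and the part of dividing cells in the Acta2 value was not tested. Des read 2.97, 2.67 and 2.75 against 3.01, 2.97 and 2.99, all at the edge of the background range. Timp1, a gene induced in liver injury, stayed between 2.18 and 2.34 on all 6 arrays. Neither Des nor Timp1 was tested, and such values do not show that the genes were silent.

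**Figure D2:**
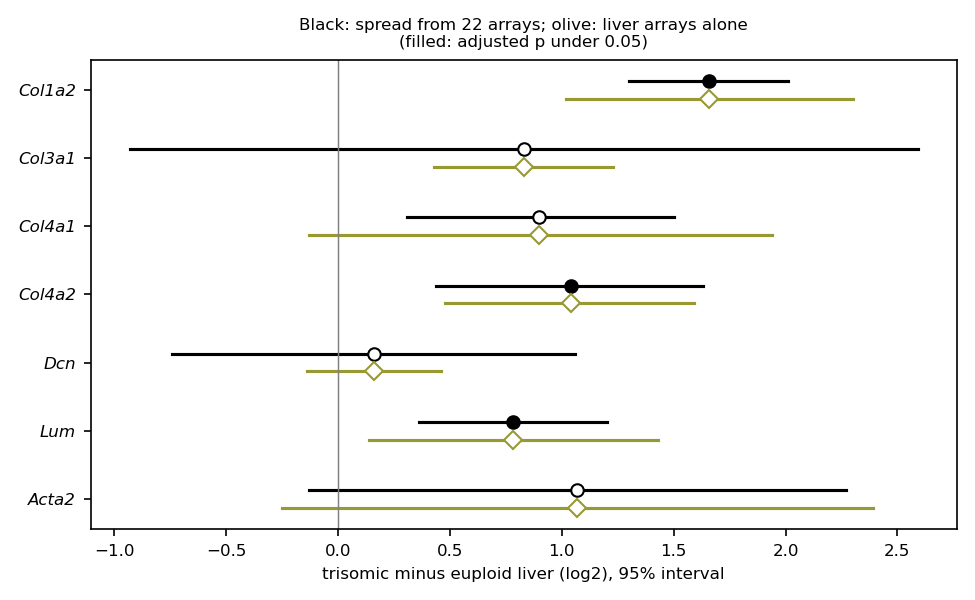
Change from euploid to trisomic liver on the log2 scale for the 7 tested genes, with 95% intervals from the spread of 22 arrays (black circles) and of the 6 liver arrays alone (olive diamonds); filled symbols have an adjusted p under 0.05. Col1a2, Col4a2 and Lum are filled with 22 arrays, none with liver alone, and the interval of Col3a1 shrinks from -0.93 to 2.59 to 0.43 to 1.23.

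The position of the 7 genes on single arrays was summarised by their deviations. The mean of the deviations from their own liver means was -0.28, -0.48 and -0.62 on euploid liver arrays 1 to 3, and 0.56, 0.37 and 0.45 on the trisomic arrays. On euploid liver 1 only 1 of the 7 genes was above its liver mean, and on the other euploid arrays none was. On trisomic arrays 1 and 3 all 7 were above it and on trisomic array 2 it was 6, the exception being Acta2. Over the 6 liver arrays Col1a2 correlated with Col3a1 and with Col4a2 at r = 0.95 each, and Col4a1 with Col4a2 at r = 0.86, whereas Col4a1 correlated with Col3a1 at 0.46 and with Dcn at 0.44. Within the euploid arrays Col4a1 was lowest on array 3, where Col3a1 was highest. Acta2 correlated with the other 6 genes at Pearson r between 0.31 and 0.43, but at Spearman rho between 0.60 and 0.89. By rho Col4a1 correlated with Col3a1 at 0.31 and with Dcn at 0.71. These are descriptions over 6 arrays that share the genotype difference.

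Other genes of matrix biology were counted in 7 lists of 118 genes in all, 109 of them on the array. In liver 54 were tested, of which 13 were called higher and 2 lower, with a median change of 0.26. Over all tested genes 5.77% were called higher and 3.78% lower. Single lists had few tested genes, so their counts say little beside these shares. Of the other collagens 4 of 10 tested genes rose and 1 fell. Col5a2, a chain of the type V collagen that nucleates fibrils, rose by 2.01 from 3.27 ± 0.58 to 5.28 ± 0.32 (SD, n = 3; SE 0.203, limma adjusted p = 7.66e-06, and 0.0698 on liver arrays alone). Its euploid mean was below 4, so Col5a2 passed the test minimum through the trisomic arrays and was bound to be higher. Col5a1 rose by 1.35 (SE 0.361, adjusted p = 0.0236), a call lost without euploid liver 3, trisomic liver 1 or trisomic liver 2 (lowest 1.04). The type VI chains Col6a2 and Col6a1 rose by 1.33 (SE 0.252, adjusted p = 0.00225) and 1.12 (SE 0.234, adjusted p = 0.00478). Col27a1, a fibrillar collagen best known from cartilage, fell by 1.58 (SE 0.207, adjusted p = 8.36e-05).

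Of the genes of collagen processing and crosslinking, 2 of 13 tested rose and none fell, with a median of -0.07. These were Crtap, a partner in prolyl 3-hydroxylation, and Pcolce, the enhancer of the procollagen C-proteinase, both by 0.95 (SE 0.249 and 0.253, limma adjusted p = 0.0204 and 0.0231). Both calls were lost without euploid liver 2, trisomic liver 1 or trisomic liver 2, that of Crtap also without euploid liver 1 (lowest 0.72) and that of Pcolce without euploid liver 3 (lowest 0.70). Matrix turnover had 2 of 6 higher, Mmp2, a gelatinase, by 1.42 (SE 0.279, adjusted p = 0.00291) and Plat, a plasminogen activator, by 1.25 (SE 0.318, adjusted p = 0.0179). Mmp2 stayed called without euploid liver 1, at 0.90, and Plat was lost without euploid liver 2, trisomic liver 2 or trisomic liver 3 (lowest 1.12). With means of 3.55 on euploid and 4.79 on trisomic arrays, Plat passed the test minimum through the trisomic arrays and was bound to be higher. Of the basement membrane partners 1 of 3 rose, Nid1 (nidogen) by 1.13 (SE 0.239, adjusted p = 0.0049). With limma on the liver arrays alone 0 of the 54 genes of the 7 lists were called, and 16 had an unadjusted p under 0.05. That fit called 0.232% of all tested genes, so a count of 0 says little about the lists.

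The matrix proteoglycans and glycoproteins had 3 of 7 higher. Smoc2 rose by 3.05, the largest change among the 54 tested genes of the 7 matrix lists, from 6.39 ± 1.02 to 9.44 ± 0.84 (SD, n = 3; SE 0.446, limma adjusted p = 0.000247), and lies within the first 30 Mb of chromosome 17. The extra piece is centromeric but its end is not in the labels, so 30 Mb is a working bound. None of the 10 genes of the main list lies there. Postn (periostin) rose by 1.16 (SE 0.286, adjusted p = 0.0143) and Prelp by 0.63 (SE 0.184, adjusted p = 0.0385). Both calls were lost without euploid liver 3 or trisomic liver 1, that of Prelp also without euploid liver 1, with lowest values of 1.07 for Postn and 0.37 for Prelp. With the listed genes of the first 30 Mb left out, 12 of 53 were called higher and 2 lower.

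TGF-beta and PDGF signalling, the main fibrogenic signals to stellate cells, had 1 of 12 higher and 1 lower, with a median of -0.02. Beside the 5.77% and 3.78% of all tested genes, such counts say nothing particular about this list. Pdgfa, a PDGF ligand, rose by 0.94 (SE 0.269, limma adjusted p = 0.0353), which was lost without euploid liver 3 (0.56), trisomic liver 1 (0.91) or trisomic liver 2 (0.87). Ccn2, a matricellular protein that TGF-beta induces, fell by 2.08 from 8.30 ± 0.50 to 6.22 ± 0.44 (SD, n = 3; SE 0.296, adjusted p = 0.000182). Of 3 tested collagen receptors 0 were called and 0 had an unadjusted p under 0.05, with limma changes of -0.36 for Itgb1 and 0.52 for Itga1 and adjusted p values of 0.441 and 0.531.

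**Figure D3:**
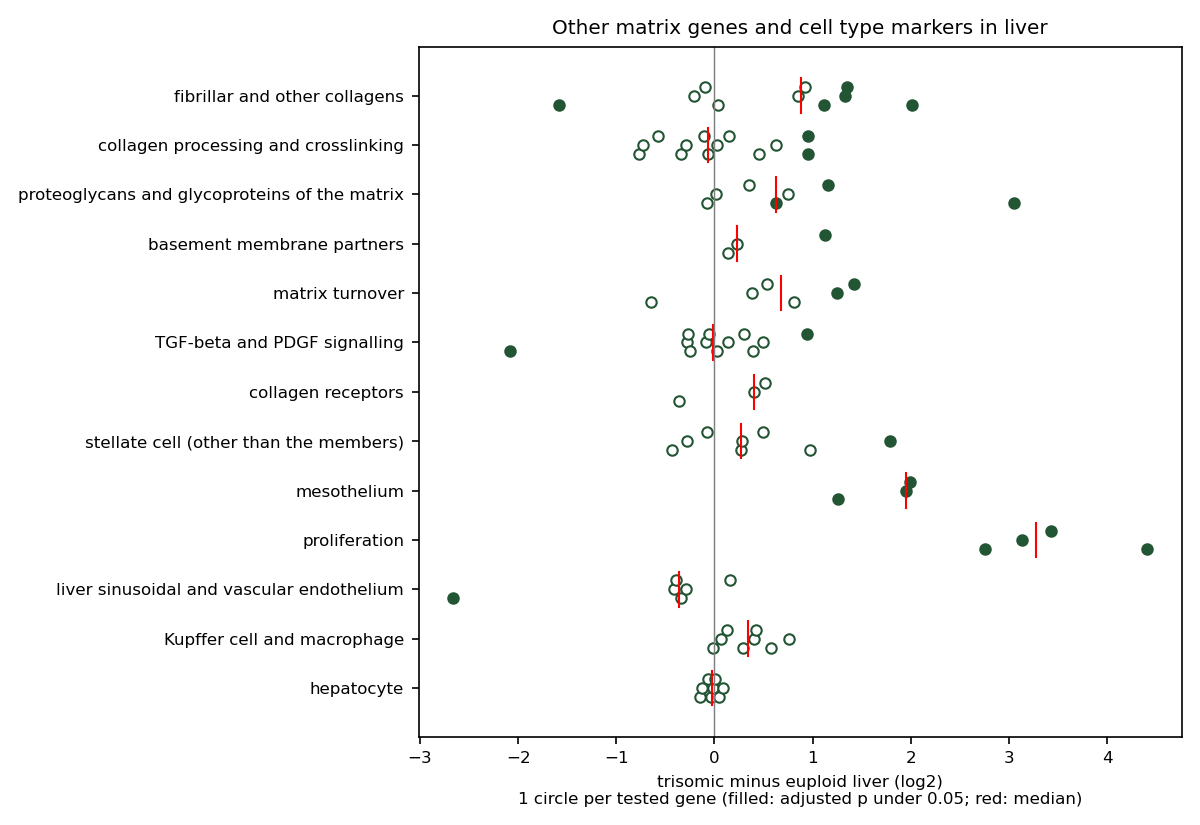
Change from euploid to trisomic liver (log2) of each tested gene in 7 lists of matrix biology and 6 lists of cell type markers; filled circles have a limma adjusted p under 0.05 and red bars are list medians. The collagens have a median of 0.89 and TGF-beta and PDGF signalling one of -0.02, and all 4 tested proliferation genes and all 3 tested mesothelial genes are higher. Of these only Mcm6 and Gpm6a had a euploid mean of at least 4, and the others were bound to be higher.

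Markers of the cells that could carry these genes were read beside them. In liver 5.77% of all tested genes were called higher and 3.78% lower, and counts from such short marker lists say little beside these shares. Of the other stellate cell markers 1 of 8 tested was called, Nt5e, an ecto-nucleotidase, by 1.79 (SE 0.343, limma adjusted p = 0.00241). The median was 0.27, with -0.28 for Lrat, 0.28 for Reln, -0.08 for Colec11 and 0.49 for Pdgfrb (adjusted p = 0.107), the PDGF receptor of stellate cells. The mean level of that list was 5.71 to 5.76 on euploid and 5.88 to 5.98 on trisomic arrays, and 5 of its 16 genes (Ngfr, Hand2, Hhip, Vipr1 and Myl9) were in the background range. Mesothelial markers were higher in 3 of 3 tested genes, Krt19 by 1.26, Gpm6a by 1.95 and Msln by 1.99, the last of which lies in the first 30 Mb of chromosome 17. Of the 7 on the array only Gpm6a had a euploid mean of at least 4. Krt19 and Msln passed the test minimum through the trisomic arrays and were bound to be higher. Without euploid liver 3 Gpm6a was at 0.92 and Krt19 at 1.11, neither called, and Msln at 1.28, still called. Gpm6a was also lost without trisomic liver 1 (1.99) or trisomic liver 2 (1.64). Their list had a mean level of 2.62 to 4.04 on euploid and 4.5 to 4.86 on trisomic arrays, while Wt1 and Upk1b were in the background range in both genotypes.

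Of 9 proliferation genes on the array 4 were tested in liver and all 4 were higher, from 2.76 for Mcm5 to 4.41 for Cdc20. Mean list levels were 2.71 to 3.16 on euploid and 4.55 to 7.25 on trisomic arrays. Only 1 of the 9, Mcm6, had a euploid mean of at least 4. Cdk1, Cdc20 and Mcm5 passed the test minimum through the trisomic arrays and were bound to be higher. All 4 were highest on trisomic liver 3, without which Cdk1 (2.07) and Cdc20 (3.44) fell below the test minimum, while Mcm5 and Mcm6 stayed called without any 1 array, at 2.15 or more and 2.81 or more. Cholangiocyte markers rose in 2 of 4, Krt19, which is also on the mesothelial list, and Prom1, by 2.54 (1.51 and still called without trisomic liver 2), with mean list levels of 3.61 to 4.01 and 4.16 to 4.45. Of 8 Kupffer cell and macrophage markers 0 were called by limma (median 0.35, 2 with an unadjusted p under 0.05, mean list levels 5.86 to 6.71 and 6.36 to 6.73). Of 6 endothelial markers 1 fell, Lyve1 by 2.66 (median -0.37, mean list levels 5.69 to 6.20 and 5.40 to 5.84), with Pecam1, Cdh5, Flt1 and Emcn in the background range. Lyve1 read 4.71, 3.13 and 3.14 on the trisomic arrays, so it passed the test minimum through the euploid arrays and was bound to be lower. Alas2, of red cell precursors, fell by 1.54. Of 8 hepatocyte markers 0 were called by limma and 0 had an unadjusted p under 0.05. With limma on the liver arrays alone 0 markers of these lists were called, against 0.232% of all tested genes. An unadjusted p under 0.05 was then found for 2 of 8 stellate, 2 of 3 mesothelial, 4 of 4 proliferation, 2 of 4 cholangiocyte, 1 of 6 endothelial and 1 of 1 red cell markers, and for 0 of 8 in the Kupffer cell and the hepatocyte lists. The part that mesothelial, biliary, dividing or other cells played in the matrix genes was not tested.

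The genes that most resembled the 7 were sought among 8173 other genes measured in liver, by Pearson's r with the mean deviation of the 7. Over the 6 liver arrays these were Palmd (0.994), Atp7a (0.993), Fa2h (0.993), Itch (0.992) and Cuta (0.991), each with a Spearman rho of 0.943. Palmd read 7.28, 7.13 and 6.99 on euploid and 8.36, 8.29 and 8.25 on trisomic arrays, and Cuta lies in the first 30 Mb of chromosome 17. None of the 5 is on the matrix lists. Over all 22 arrays they were Gstm3 (0.994) and Itih5, Pmp22, Amdhd1 and Fam149a (0.993 each), with rho from 0.606 to 0.723. Over 22 arrays the likeness is mostly the contrast of liver with germ cells, since these 5 genes did not exceed 2.83 on any germ cell array.

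In the sorted germ cells, most of the 10 genes were near background. Col1a1, Des and Timp1 were near it in whole liver too (medians 2.57, 2.97 and 2.22), so their germ cell values cannot describe stromal RNA. Only the 7 genes measured in liver can describe how much of it the germ cell arrays registered. Col1a1, Col1a2 and Timp1 were in the background range on all 16 germ cell arrays, and Lum on 15 of 16. Des ran from 2.81 to 3.17, Col4a1 from 2.97 to 3.82 and Col4a2 from 3.19 to 4.51. Against euploid liver, Col1a2, Col3a1, Col4a1, Col4a2, Dcn and Lum were called lower in each of the 3 euploid germ cell types (6 of 7 tested each time). Over all tested genes 40.1%, 41% and 43.9% were called lower in pre-mid-pachytene cells, mid-late-pachytene cells and spermatids in this order, and these genes entered through their liver level, so that they were bound to differ. The changes ran from -3.12 for Col4a2 in spermatids to -10.93 for Dcn in mid-late-pachytene spermatocytes.

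**Figure D4:**
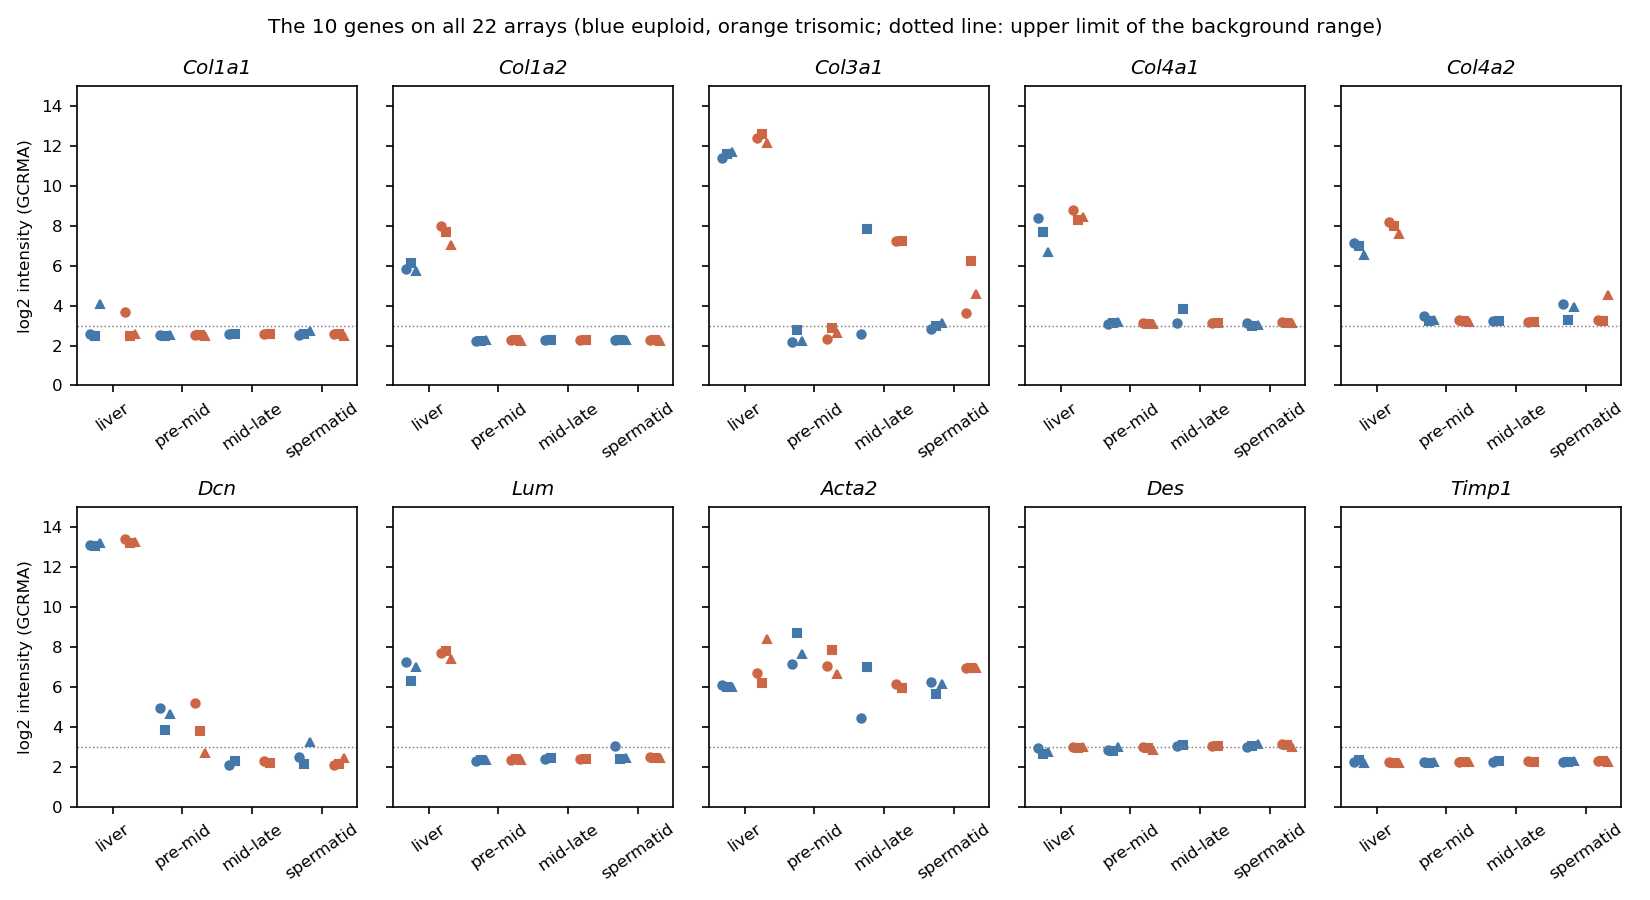
Log2 GCRMA intensity of the 10 genes on all 22 arrays by cell type (blue euploid, orange trisomic; circle, square and triangle for arrays 1, 2 and 3; the dotted line at 3 marks the background range). Acta2 is at 4.45 or above on every array, Col3a1 is above 7 on 3 of 4 mid-late-pachytene arrays, and Dcn reaches 5.21 in pre-mid-pachytene spermatocytes.

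Of the 10 genes 3 reached a mean of 4 in a germ cell group, each with its own pattern. Acta2 was at 4.45 or above on all 16 arrays. It read 7.16, 8.71 and 7.67 on euploid and 7.06, 7.86 and 6.67 on trisomic pre-mid-pachytene arrays, and 4.45 and 7.01 against 6.16 and 5.94 on mid-late-pachytene arrays. In spermatids it read 6.25, 5.64 and 6.17 on euploid and 6.98, 6.97 and 6.95 on trisomic arrays. The highest mean of Acta2 in euploid males was that of pre-mid-pachytene spermatocytes, 1.81 above liver (SE 0.571, limma adjusted p = 0.00682, 86.9% of genes called in either direction), 2.12 above mid-late-pachytene spermatocytes (adjusted p = 0.0051, 78.9%) and 1.83 above spermatids (adjusted p = 0.00581, 85.1%). Liver, spermatids and mid-late-pachytene spermatocytes had means of 6.04, 6.02 and 5.73, and no difference among these 3 was called for Acta2. These values depend on the pair of euploid mid-late arrays, 4.45 and 7.01. Without array 1 the difference of 2.12 was 0.84 and not called (limma adjusted p = 0.245), and without array 2 it was 3.40. Without array 2 mid-late-pachytene spermatocytes were called lower than liver (-1.59, adjusted p = 0.0308) and than spermatids (-1.57, 0.046), and without array 1 the values were 0.97 and 0.99, not called. The higher levels in pre-mid-pachytene spermatocytes than in liver and in spermatids stayed called without any 1 array, at 1.38 or more and 1.40 or more. The 95% intervals were -1.65 to 1.04 for mid-late-pachytene spermatocytes minus liver, -1.22 to 1.18 for spermatids minus liver and -1.61 to 1.04 for mid-late-pachytene spermatocytes minus spermatids, with background shares of 88.9% and 91% against liver and 64.9% between the germ cells.

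Beside Acta2, the smooth muscle actin gene Actg2 read 9.82 to 11.11 on pre-mid-pachytene, 6.97 to 8.29 on mid-late-pachytene and 11.66 to 12.80 on spermatid arrays, and 2.28 to 2.85 in liver. The other peritubular myoid markers were low, since Tagln, Cnn1, Smtn, Pdgfra and Ptch1 were in the background range in every germ cell group. The 8 markers of that list had mean levels of 3.41 to 3.69 on pre-mid-pachytene, 2.86 to 3.03 on mid-late-pachytene and 3.53 to 3.71 on spermatid arrays. Myl9, a myosin light chain of smooth muscle, was at 3.89 ± 1.03 on euploid and 4.29 ± 0.45 on trisomic pre-mid-pachytene arrays (SD, n = 3 each), with means of 1.90 to 1.98 in every other group. Pre-mid-pachytene arrays also carried spermatid transcripts, with mean levels of the 7 spermatid markers of 12.51 to 13.28 against 14.0 to 14.75 in spermatids and 10.02 to 11.32 in mid-late-pachytene spermatocytes, and with Prm1 at 15.77 to 16.08 against 15.81 to 16.25 in spermatids. Their Sertoli cell markers had mean levels of at least 6.28, against at most 4.81 in the other germ cells. The part of myoid cells, spermatids or Sertoli cells in the Acta2 signal was not tested.

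Among the germ cells Dcn reached 4 in pre-mid-pachytene spermatocytes only, with 4.95, 3.86 and 4.66 on euploid and 5.21, 3.80 and 2.69 on trisomic arrays. It read 2.08 to 2.32 in mid-late-pachytene spermatocytes and 2.10 to 3.23 in spermatids. In euploid males Dcn in these cells was 2.28 higher than in mid-late-pachytene spermatocytes (SE 0.475, limma adjusted p = 0.000245) and 1.86 higher than in spermatids (SE 0.425, adjusted p = 0.000532). With means of 4.49, 2.20 and 2.63 in this order, Dcn passed the test minimum through pre-mid-pachytene spermatocytes and was bound to be higher there. Of all tested genes 78.9% and 85.1% were called in either direction in these comparisons. Of 13 Sertoli cell markers 7 were at 4 or above in pre-mid-pachytene spermatocytes of either genotype and 5 in the other germ cells. Among them Clu read 12.99 to 13.69, Aard 11.76 to 12.52 and Amhr2 10.65 to 11.30 on the pre-mid-pachytene arrays. On the other germ cell arrays they did not exceed 10.22, 9.60 and 8.62 in this order. Amh, Dhh, Gata4 and Fshr were in the background range in all germ cell groups. So were Cyp11a1, Star and Hsd17b3 of the Leydig cell list. Of the 7 testis macrophage markers, Csf1r, C1qa, C1qc, Cd68 and Lyz2 were in that range as well. However, 1 of the 7 was at 4 or above in each germ cell group other than the pre-mid-pachytene ones, where 0 were. Cyp17a1, an enzyme of androgen synthesis on the Leydig cell list that liver also expressed, was at 5.08 ± 1.71 on euploid and 3.02 ± 0.56 on trisomic pre-mid-pachytene arrays, and at 5.08 ± 3.41 and 2.37 ± 1.42 in spermatids (SD, n = 3 each), with 3.44 and 2.67 in mid-late-pachytene spermatocytes. The part of any of these cells in the Dcn signal was not tested.

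Col3a1 was split among the mid-late-pachytene arrays, with 2.59 and 7.86 on the euploid and 7.26 and 7.24 on the trisomic arrays. Euploid array 1 was in the background range while the other 3 stood together. In spermatids Col3a1 read 2.83, 3.0 and 3.13 on euploid and 3.62, 6.25 and 4.57 on trisomic arrays. The groups did not overlap, but the mean was too low for a test, and 7.45% of tested genes were higher there without overlap. In pre-mid-pachytene spermatocytes Col3a1 read 2.19 to 2.89. Col1a2 stayed between 2.22 and 2.30 on all of these arrays. Between euploid cell types Col3a1 was 2.82 lower in pre-mid-pachytene than in mid-late-pachytene spermatocytes (SE 0.922, limma adjusted p = 0.00944). It was 2.24 higher in mid-late-pachytene spermatocytes than in spermatids (SE 0.923, adjusted p = 0.041). Of all tested genes 78.9% and 64.9% were called in either direction in these comparisons. Col3a1 passed the test minimum through its mid-late-pachytene mean of 5.23, against 2.40 and 2.99, and was bound to be higher there. Both differences rest on euploid array 2 of the mid-late-pachytene spermatocytes, without which Col3a1 was too low to be tested (-0.19 and -0.39), and they were -5.45 and 4.87 without array 1. The second was lost without any 1 of euploid spermatid arrays 1, 2 and 3 (limma adjusted p = 0.0829, 0.0696 and 0.063) and with the arrays of the compared cell types alone (0.165).

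Between genotypes, none of the tested genes was called in any germ cell type. Dcn and Acta2 were tested in pre-mid-pachytene spermatocytes, with limma changes of -0.59 and -0.65 (adjusted p = 0.409 and 0.5), while 10.3% of all genes were called there. Col3a1 and Acta2 were tested in mid-late-pachytene spermatocytes, with 2.02 (SE 1.01, adjusted p = 0.7) and 0.31 (adjusted p = 0.999), against 0.965% of all genes. Without euploid mid-late array 2 the change of Col3a1 was 4.66 (adjusted p = 0.000306), and without euploid mid-late array 1 it was -0.61, so this value depends on 1 array. Acta2 was tested in spermatids, with 0.95 (SE 0.564, adjusted p = 0.742, arrays without overlap), against 0.821% of all genes called and 7.45% higher without overlap. By limma, 0 of these genes had an unadjusted p under 0.05 in any of the 3 comparisons.

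Whether the genotype difference in liver differed from that in germ cells could be tested for Acta2, Dcn and Col3a1 only. No such difference was called, while 5.21%, 0.924% and 0.982% of all genes were called against pre-mid-pachytene cells, mid-late-pachytene cells and spermatids in this order. Acta2 against pre-mid-pachytene spermatocytes had the lowest p, with a difference of 1.72 (95% interval 0.06 to 3.37, limma unadjusted p = 0.0427, adjusted p = 0.201), and it was the only unadjusted p under 0.05. For Col1a2, Col4a2 and Lum, the genes called in liver, the germ cell levels were too low for such a test.

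For germ cells the calls between genotypes in the matrix lists are given beside the share of all tested genes. With so few genes tested, these counts say nothing particular about matrix genes. In pre-mid-pachytene spermatocytes 1 of 28 tested genes rose, Col4a5, a basement membrane chain, by 1.21 (SE 0.328, limma adjusted p = 0.0277), and 1 fell, Pcolce by 0.81 (SE 0.254, adjusted p = 0.0491). Of all tested genes 5.88% were called higher there and 4.46% lower. Pcolce had risen in liver, and the difference between the cell types was not tested for it. In mid-late-pachytene spermatocytes limma called 0 of 24, against 0.965% of all tested genes, and 2 had an unadjusted p under 0.05. In spermatids 1 of 32 rose, Nid2 (nidogen 2) by 1.53 from 4.94 to 6.47 (SE 0.342, adjusted p = 0.0443), and 0.821% of all tested genes were called there. Pcolce had a mean of 9.89 in euploid and 9.62 in trisomic spermatids, above the test minimum in every cell type.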

How the data were processed

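The authors deposited 1 log2 intensity per probe set and array, made with GCRMA per the submitters' processing notes. GCRMA corrects the background by probe GC content, makes the arrays' distributions equal and summarizes each probe set, so low signals are pressed towards a floor. Its version, and which arrays were normalized together, are not given in the sources used here. RNA of 20 to 30 ng was amplified in a 2-cycle labelling, per the labels' protocols. The table held 16539 probe sets, 15780 with 1 gene symbol. The number of arrays limits the precision.

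The means of 8 groups were fitted over all 22 arrays with limma 3.58.1 in R 4.3.3, and two-sided moderated tests were adjusted by Benjamini-Hochberg at 0.05 over genes averaging 4 or more in the cell type (in either of 2 cell types compared, or in both for interactions). The scripts were tested on simulated data. Figures used matplotlib 3.10.9 and python 3.11.15. Members, lists and rules were chosen with earlier results of these data known. Named are all 10 members, up to 3 called genes per list with the largest change (else the 2 highest), the leading markers and the 5 genes most like the members. Col6a1, Col6a2 and some markers were named after their values were seen.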

Additional observations from a re-analysis of the deposited data

How the results depend on the processing

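Over 13 comparisons, 165 of 180 alternative counts of called genes stayed within 1.5 times the reported count, and 132 of 148 alternative genotype changes of single members kept direction and call. In the germ cell genotype comparisons and the interactions the reported count was 0 with only 1 or 2 genes tested. Against liver most genes were bound to differ, so the total of 165 says little on the liver count. Tried were a filter of none or of 6, quantile normalization, median centring, limma with a trend and robust spread, only the compared cell types, a replicate block and leaving out each array; probe sets on their own did not apply. In liver the count of 3 was 0 with the liver arrays alone and 1 to 4 with an array left out, the lowest without trisomic liver 1 or 2. Col1a2 ranged from 1.45 to 1.92 and lost its call with the liver arrays alone. Replicate numbers did not pair the samples (same-number correlations in liver of 0.0736, 0.243 and 0.114). With the replicate block 4 genes were called in liver, as Col4a1 had an adjusted p of 0.0407. In mid-late-pachytene spermatocytes the genotype count was 0 to 1 with an array left out, and leaving out 1 array gave -0.61 to 4.66 for Col3a1 and -0.96 to 1.59 for Acta2, both negative without euploid array 1. Dcn in pre-mid-pachytene spermatocytes ranged from -0.90 to 0.02, positive without trisomic array 3. With a minimum mean of 6, pre-mid-pachytene spermatocytes had 1 gene called against spermatids and 1 against mid-late-pachytene spermatocytes, since fewer members were tested. The count of mid-late-pachytene spermatocytes against spermatids was 0 with no filter, a minimum mean of 6 or the compared arrays alone, and 0 to 1 with an array left out, but the gene called was Col3a1 only without mid-late array 1, while it was Acta2, lower, without mid-late array 2 and Col4a2, lower (-0.80), without euploid spermatid array 2. With an array left out Acta2 ranged from -1.59 to 0.97 for mid-late-pachytene spermatocytes minus liver, -1.57 to 0.99 for the same minus spermatids and -0.14 to 0.17 for spermatids minus liver. Leaving out liver arrays for the listed genes was added after seeing the data, and 8 of the 15 called matrix list genes stayed called without any 1 array. With no filter each of the 3 interactions had 1 gene called, and the one with mid-late-pachytene spermatocytes had 0 to 1 with an array left out. The cause of these shifts was not tested otherwise. Genes near background, among them Col1a1, Des and Timp1, cannot be judged from these arrays.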
